A study of Mus musculus with 8 samples.

Results

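A group of 10 genes of pericellular proteolysis were followed in B16-F10 cells, a mouse melanoma line. They are the membrane-anchored proteases Mmp14, Adam9, Adam10 and Adam17, the metalloprotease inhibitors Timp1, Timp2 and Timp3, the plasminogen activator Plat and its inhibitor Serpine2, and Bsg. They were chosen by symbol, and all 10 were found among the 46477 rows of the deposited table. Of these, 7 reached a mean FPKM (a read level corrected for gene length and sequencing depth) of at least 1 over the 8 libraries and were tested together with all 6917 genes at that level. Timp1 and Plat lay below it and are given as values, and Serpine2 was listed at 0 in all 8 libraries.

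Before RNA was taken, the melanoma cells spent 24 hours on matrix left by lysed smooth muscle cells. The smooth muscle cells had been given siRNA (72 hours) and then SFM or TCM medium (72 hours), so the siRNA was applied to them and the knockdown cannot be checked in these libraries. The 8 conditions, with 1 library each, were siNT, siKLF4, siFN and siKLF4-siFN (both siRNAs, written "both" in lists of values) on SFM matrix and the same 4 on TCM matrix. TCM is read as the B16-F10 tumor conditioned medium of the series title, siNT as the control siRNA. SFM and FN are not spelled out, and KLF4 is a transcription factor. For medium, siKLF4 and siFN alike, 4 libraries stood against 4, but no condition had a replicate, and the labels do not say whether libraries came from separate cultures.

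Cells cut the matrix around them with proteases held at the plasma membrane. MMP14 degrades collagen and fibronectin and, in a complex with TIMP2, activates another matrix protease, MMP2. ADAM9, ADAM10 and ADAM17 mainly release the outer parts of membrane proteins such as growth factors, cytokines and adhesion molecules. TIMPs bind the active site of metalloproteases. TIMP3 stays bound to the matrix and also blocks ADAM17. Tissue plasminogen activator, the product of Plat, turns plasminogen into plasmin and is blocked by the serpin encoded by Serpine2. Basigin, the product of Bsg, is a membrane protein known for inducing matrix metalloproteases in neighbouring cells and as the chaperone of lactate transporters.

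Promoter windows of 300 bases, from 250 before to 50 after the start, were taken from RefSeq (GRCm38.p6) and were found for 7 of the 10 genes (Mmp14, Timp1, Timp2, Timp3, Adam10, Adam17 and Serpine2). Those of Mmp14 (chr14:54431348-54431647, plus strand) and Timp3 (chr10:86300162-86300461, plus strand) are shown because, of the 7 tested genes, these had the largest differences between matched libraries on the log2(FPKM + 1) scale, Mmp14 with a low value in SFM siKLF4-siFN and Timp3 with a high value in SFM siFN. Capitals mark the GC box GGGCGG, searched on both strands.
Mmp14: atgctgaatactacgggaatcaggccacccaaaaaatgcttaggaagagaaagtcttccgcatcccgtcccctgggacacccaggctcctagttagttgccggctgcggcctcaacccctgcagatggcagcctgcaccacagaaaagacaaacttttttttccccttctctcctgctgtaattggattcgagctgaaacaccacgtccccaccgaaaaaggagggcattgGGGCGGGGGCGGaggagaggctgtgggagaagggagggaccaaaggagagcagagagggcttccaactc
Timp3: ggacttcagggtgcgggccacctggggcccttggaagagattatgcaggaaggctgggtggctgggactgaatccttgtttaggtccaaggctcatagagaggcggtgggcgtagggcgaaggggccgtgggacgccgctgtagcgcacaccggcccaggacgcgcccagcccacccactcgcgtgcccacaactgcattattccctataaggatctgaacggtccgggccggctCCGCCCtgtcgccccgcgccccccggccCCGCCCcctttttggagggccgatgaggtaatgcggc
The GC box, which Sp family factors bind, was found in all 7 windows, and in 35.7% of the 32851 promoter windows of the same length. It stood 2 times in that of Mmp14 and 2 times in that of Timp3. The 7 windows were 55.0% to 77.7% GC, against a median of 52.7% over all promoter windows. The part of GC content in the GC box matches was not tested. None of the 7 windows held the AP-1 motif TGANTCA, the TATA box TATAAA or the M-box TCATGTG of MITF, which stood in 7.81%, 13.6% and 3.77% of all windows. These letter matches describe the windows and are not binding sites.

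Some properties of the libraries bear on every value. The estimated depth ranged from 11600000 to 23000000 reads. The first principal component of the tested genes carried 57.9% of their variance. It was above 0 in 3 libraries, highest in SFM siKLF4-siFN (35.2), then SFM siFN (17.6) and TCM siNT (7.4), and -15.7 to -5.9 in the remaining 5. SFM siKLF4-siFN also had the fewest genes above 0, with 16129 against 16764 to 18389. TCM siFN and TCM siKLF4-siFN were the closest of 28 pairs (root mean square difference 0.173 on the log2 scale, next pair 0.228), so whether they are independent samples is uncertain. Of 8 melanocyte markers 7 reached a mean FPKM of 1. Summed FPKM over smooth muscle markers was 1.31 to 2.4, with Acta2 at 0 and only Des of 9 at a mean of 1, at 1.07. Over 8 fibroblast markers the sum was 0.151 to 0.309, with Col3a1, Dcn, Lum and Thy1 at 0. Over 6 endothelial markers it was 0.0165 to 0.0497, with Cdh5 and Kdr at 0. Of leukocyte genes, Cd68, a lysosomal protein of macrophages, ranged from 1.95 to 4.52, highest in TCM siNT, and Lyz2 from 0.0102 to 0.14. In bulk RNA, fewer cells of a type and less RNA per cell cannot be told apart. All 37 mitochondrially encoded rows were also listed at 0, so a 0 in this table need not mean low expression.

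Bsg had the highest level, at a mean FPKM of 69.3 ± 6.63 (SD over the 8 libraries, as for the levels that follow). Mmp14 followed at 7.43 ± 1.64, Adam9 at 2.92 ± 0.49, Timp2 at 2.30 ± 0.29, Timp3 at 1.90 ± 1.06, Adam17 at 1.67 ± 0.25 and Adam10 at 1.11 ± 0.26. Timp1 stood at 0.466 ± 0.214 and Plat at 0.326 ± 0.0986. The ranges of Bsg and Mmp14 did not overlap, nor did those of Mmp14 and Adam9, whereas every neighbouring pair from Adam9 down to Plat overlapped. Mmp14 was thus the most abundant of the 4 proteases at the membrane in every library.

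Mmp14 (ENSMUSG00000000957.11, chromosome 14, 54431612 to 54445364) was the protease with the widest absolute spread. Its FPKM was 9.71 (siNT), 8.37 (siKLF4), 8.33 (siFN) and 4.21 (both) on SFM matrix, and 6.44 (siNT), 6.93 (siKLF4), 7.89 (siFN) and 7.61 (both) on TCM matrix. The library with both siRNAs on SFM matrix was the lowest, and the next lowest, TCM siNT, was 1.53 times higher. Estimated reads behind these values numbered 176 to 724, and the approximate 95% counting interval in SFM siKLF4-siFN, 3.61 to 4.88, did not reach that of TCM siNT, 5.72 to 7.22. Such intervals cover counting error only, not variation between cultures.

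The 3 ADAM proteases had their lowest value in the same library. Adam10 (ENSMUSG00000054693.14, chromosome 9, 70678997 to 70780229) had an FPKM of 1.21 (siNT), 1.28 (siKLF4), 1.14 (siFN) and 0.521 (both) on SFM matrix, and 1.10 (siNT), 1.03 (siKLF4), 1.26 (siFN) and 1.35 (both) on TCM matrix. Its 7 other libraries lay within 1.03 to 1.35, and the lowest of them was 1.98 times the SFM siKLF4-siFN value, which rests on an estimated 31 reads.
Adam9 (ENSMUSG00000031555.15, chromosome 8, 24949611 to 25016927) stood at 2.91 (siNT), 3.28 (siKLF4), 2.66 (siFN) and 2.06 (both) on SFM matrix, and 2.58 (siNT), 2.92 (siKLF4), 3.59 (siFN) and 3.37 (both) on TCM matrix. Its highest values were those of both siFN libraries on TCM matrix. Adam17 (ENSMUSG00000052593.16, chromosome 12, 21323509 to 21373632) ranged from 1.24 in SFM siKLF4-siFN to 1.92 in SFM siKLF4. Its end overlaps Iah1 on the opposite strand, at an FPKM of 5.66 to 11.9, and reads in the overlap cannot be assigned because the strand setting is not given in the sources used here. Among the 7 tested genes, Mmp14, Adam9, Adam10 and Adam17 were lowest in SFM siKLF4-siFN, that is 4 of 7, against 27.1% of all tested genes.

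The inhibitor Timp3 (ENSMUSG00000020044.13, chromosome 10, 86300372 to 86349506) departed in another library. Its FPKM was 1.48 (siNT), 1.56 (siKLF4), 4.46 (siFN) and 1.89 (both) on SFM matrix, and 1.80 (siNT), 1.31 (siKLF4), 1.36 (siFN) and 1.36 (both) on TCM matrix. SFM siFN alone was high, at 2.36 times the next value, and the other 7 libraries lay within 1.31 to 1.89. The estimated reads were 441 in SFM siFN and 86 to 161 elsewhere, with counting intervals of 4.05 to 4.90 in SFM siFN and 1.56 to 2.27 in SFM siKLF4-siFN. Timp3 lies inside Syn3, which is on the opposite strand and had an FPKM of at most 0.00277. Timp3 was the 1 tested gene of 7 with its highest value in SFM siFN, against 10.9% of all tested genes.

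Timp2 (ENSMUSG00000017466.9, chromosome 11, 118301069 to 118355740) was at its lowest where Timp3 was at its highest. Its FPKM was 2.60 (siNT), 2.52 (siKLF4), 1.79 (siFN) and 2.11 (both) on SFM matrix, and 2.10 (siNT), 2.63 (siKLF4), 2.39 (siFN) and 2.29 (both) on TCM matrix. The spread was narrow, with the highest value 1.47 times the lowest. Cep295nl lies inside Timp2 on the same strand and no FPKM was found for it, so any share of its reads is not known. Timp1 (ENSMUSG00000001131.11, chromosome X, 20870166 to 20874735) ranged from 0.151 in SFM siKLF4-siFN to 0.823 in TCM siKLF4. These Timp1 values rest on an estimated 2 to 14 reads, and the counting intervals of those extremes, 0.0183 to 0.547 and 0.395 to 1.51, overlap. Timp1 was not tested.

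Plat (ENSMUSG00000031538.6, chromosome 8, 22757727 to 22782844) was low throughout, at 0.457 (siNT), 0.407 (siKLF4), 0.136 (siFN) and 0.245 (both) on SFM matrix, and 0.344 (siNT), 0.319 (siKLF4), 0.349 (siFN) and 0.353 (both) on TCM matrix. The 4 TCM libraries lay close together and the 2 siFN libraries on SFM matrix were the lowest, on an estimated 12 and 13 reads. Serpine2 (ENSMUSG00000026249.10, chromosome 1, 79794197 to 79861180) gives no comparison. Bsg (ENSMUSG00000023175.15, chromosome 10, 79704491 to 79711969) was 78.6 (siNT), 63.2 (siKLF4), 62.0 (siFN) and 76.2 (both) on SFM matrix, and 69.1 (siNT), 75.8 (siKLF4), 65.0 (siFN) and 64.6 (both) on TCM matrix. The spread of Bsg was the narrowest of the 9 genes above 0, with the highest value 1.27 times the lowest. Timp2 and Bsg were lowest in SFM siFN, 2 of 7 tested genes against 18.2% of all tested genes.

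**Figure D1:**
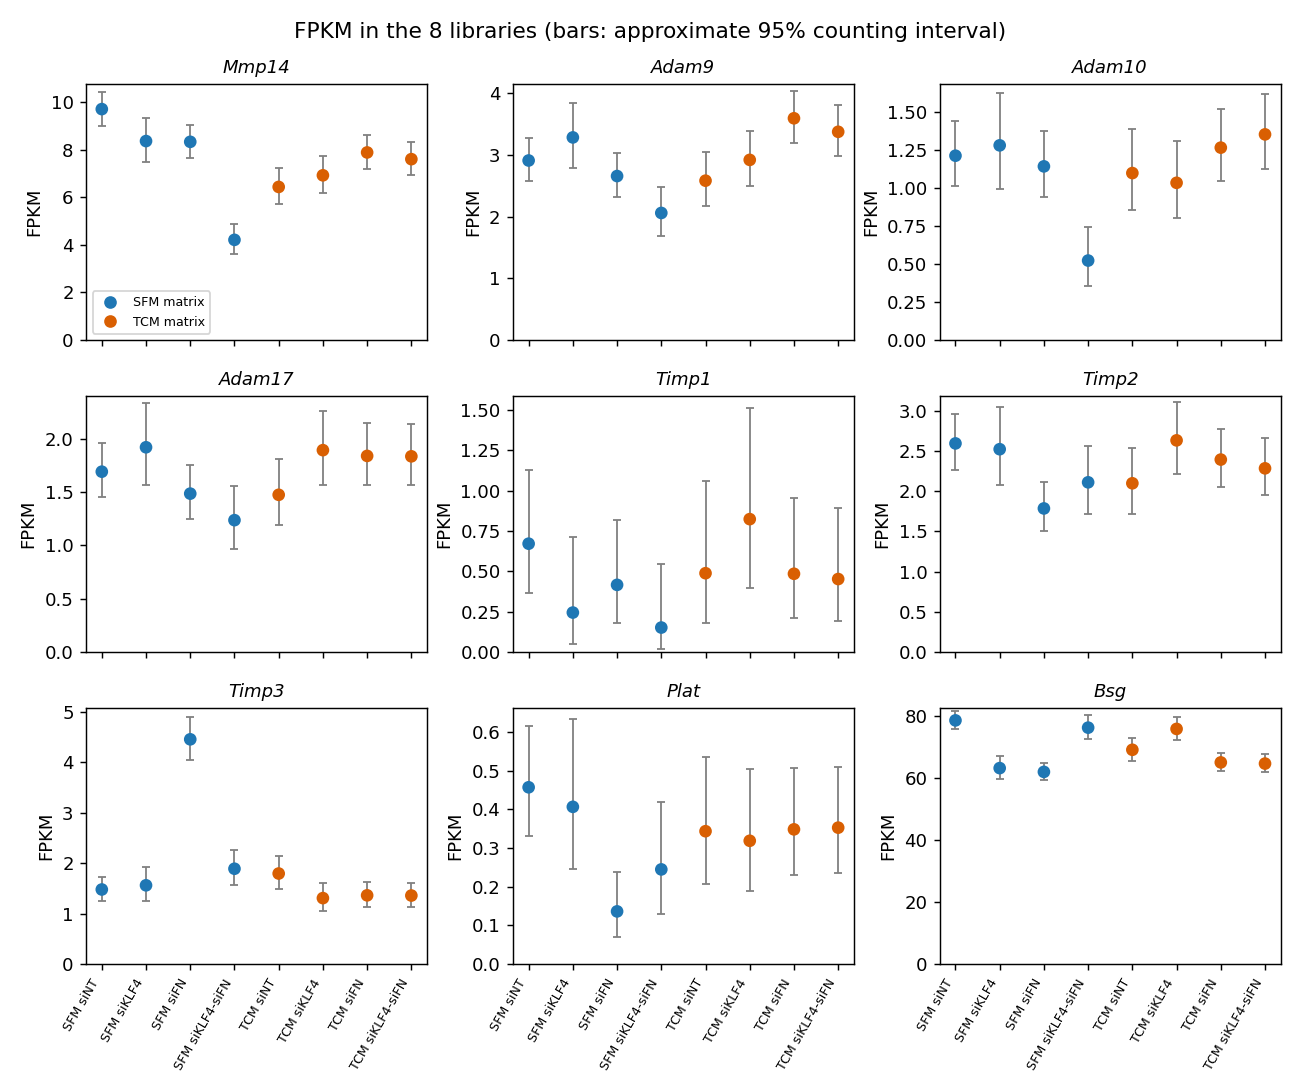
FPKM (y axes, from 0) of the 9 genes above 0 in each library (x axis), in blue for SFM and orange for TCM matrix, with bars for the approximate 95% counting interval. Mmp14 (4.21) and Adam10 (0.521) are low in SFM siKLF4-siFN, and Timp3 (4.46) is high in SFM siFN.

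The 4 proteases of the membrane together came to a summed FPKM of 15.5 (siNT), 14.9 (siKLF4), 13.6 (siFN) and 8.03 (both) on SFM matrix, and of 11.6, 12.8, 14.6 and 14.2 in the same order on TCM matrix. The sum of the 3 TIMPs was 6.66 in SFM siFN and 4.10 to 4.76 in the others, and Timp3 made up 66.95% of it in SFM siFN against 27.5% to 45.5% elsewhere. The siFN library on SFM matrix thus held the highest inhibitor sum, and the library with both siRNAs the lowest protease sum.

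Ratios within a library do not depend on its scaling. MMP14 and TIMP2 are partners in the activation of MMP2. Mmp2 itself had an FPKM of only 0.0346 to 0.128 and was not tested. The FPKM ratio of Mmp14 to Timp2 was 3.74 (siNT), 3.32 (siKLF4), 4.67 (siFN) and 1.99 (both) on SFM matrix, and 2.63 to 3.33 on TCM matrix. SFM siFN and SFM siKLF4-siFN were the highest and the lowest of the 8 in this ratio. For Mmp14 to Timp3 both were low, at 1.87 and 2.23 against 3.58 in TCM siNT and 5.29 to 6.57 in the other 5 libraries. The ratio of Adam17 to Timp3, its inhibitor, was 1.14 to 1.45 in 5 libraries, 0.821 in TCM siNT, 0.654 in SFM siKLF4-siFN and 0.333 in SFM siFN. The 3 libraries with low ratios to Timp3 are the 3 with first principal component values above 0 given above, and the part of that axis in these ratios was not tested.

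**Figure D2:**
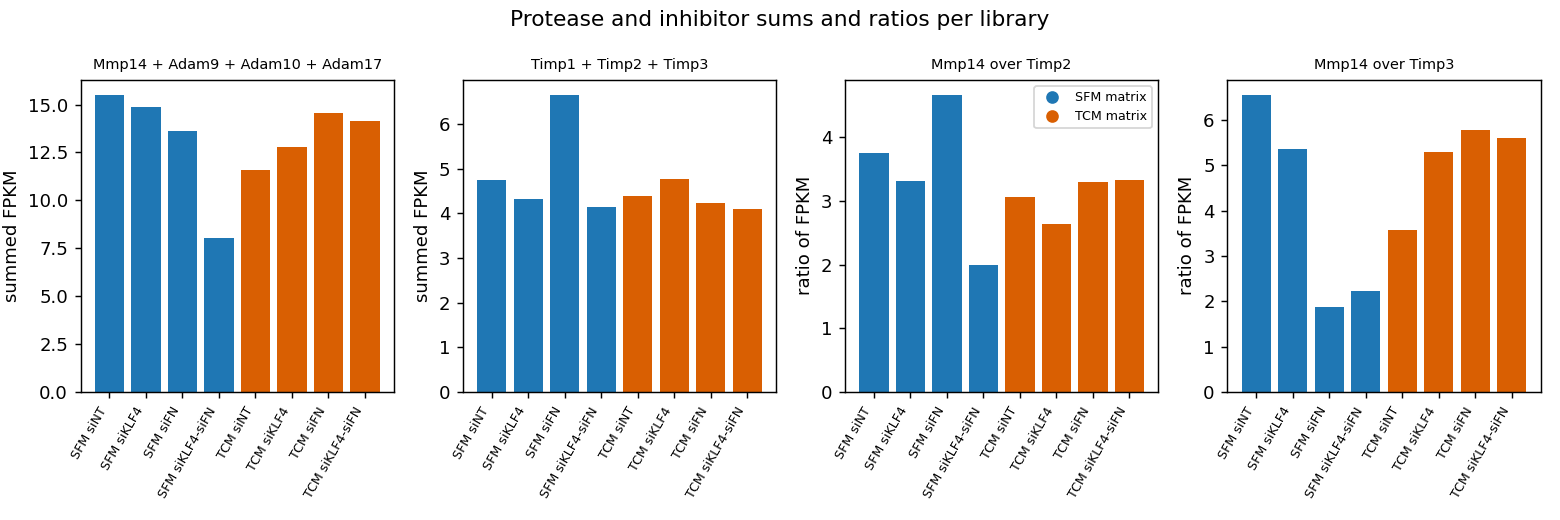
Summed FPKM of 4 proteases and of 3 TIMPs, and FPKM ratios of Mmp14 to Timp2 and to Timp3 (bars from 0), per library, in blue for SFM and orange for TCM matrix. The protease sum is lowest in SFM siKLF4-siFN (8.03) and the TIMP sum highest in SFM siFN (6.66).

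By medium, the 7 tested genes differed little on the log2(FPKM + 1) scale, which understates the change of low genes. The comparison asks whether matrix made in TCM gave other levels than matrix made in SFM. Timp3 had a mean FPKM of 1.46 ± 0.23 on TCM and 2.35 ± 1.42 on SFM matrix (SD over 4 libraries), a difference of -0.37 ± 0.22 (SE, log2, adjusted p = 0.789, limma). Mmp14 was 7.21 ± 0.66 on TCM and 7.66 ± 2.38 on SFM matrix, a difference of -0.03 ± 0.21. Adam9 had the highest value, 0.15 ± 0.15, and 4 of the 7 lay above 0, with a median of 0.05 against 0.02 over all tested genes. limma called 0 of the 7 (0.0% of all tested genes), 0 at an unadjusted p under 0.05, while 464 of all 6917 genes had one. In none of the 7 did the 4 TCM and 4 SFM libraries separate without overlap (5.45% of all tested genes), and none moved one way in all 4 matched pairs (12.2%).

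For siKLF4, the largest differences of the 7 were those of Timp3 and Mmp14. The question is whether siKLF4 in the cells that made the matrix changed these genes. Timp3 stood at 1.53 ± 0.26 with and 2.27 ± 1.47 without siKLF4 (SD over 4 libraries), a difference of -0.29 ± 0.22 (SE, log2, adjusted p = 1.0, limma). Mmp14 stood at 6.78 ± 1.81 with and 8.09 ± 1.35 without it, a difference of -0.25 ± 0.21. Both are carried by the pair SFM siKLF4-siFN minus SFM siFN, where Timp3 differed by -0.92 and Mmp14 by -0.84, while in the other 3 pairs Timp3 lay between -0.28 and 0.05 and Mmp14 between -0.19 and 0.09. The remaining 5 lay between -0.11 (Adam10) and 0.08 (Timp2). limma called 0 of the 7 (0.0% of all tested genes), 0 at an unadjusted p under 0.05, with 84 of all tested genes under it. None of the 7 separated without overlap (0.607% of all tested genes) or moved one way in 4 of 4 pairs (9.06%).

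For siFN, 6 of the 7 had values below 0 in the model that pools both media, with a median of -0.08 against -0.02 over all tested genes. The question is whether siFN in the cells that made the matrix changed these genes. Timp3 lay above 0, at 2.27 ± 1.48 with and 1.54 ± 0.20 without siFN (SD over 4 libraries), a difference of 0.28 ± 0.22 (SE, log2, adjusted p = 0.993, limma). Mmp14 differed by -0.17 ± 0.21 and Timp2 by -0.14 ± 0.11. limma called 0 of the 7 (0.0% of all tested genes), 0 at an unadjusted p under 0.05, with 84 of all tested genes under it. None of the 7 separated without overlap (0.954% of all tested genes) or moved one way in 4 of 4 pairs (4.79%). Timp1, which was not tested, was lower with siFN in 4 of 4 pairs, on very few reads. In 1 of these pairs its FPKM was nearly equal, at 0.484 in TCM siFN and 0.488 in TCM siNT. The residual of these additive fits holds any interaction, so 0 calls do not show that a factor had no effect.

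**Figure D3:**
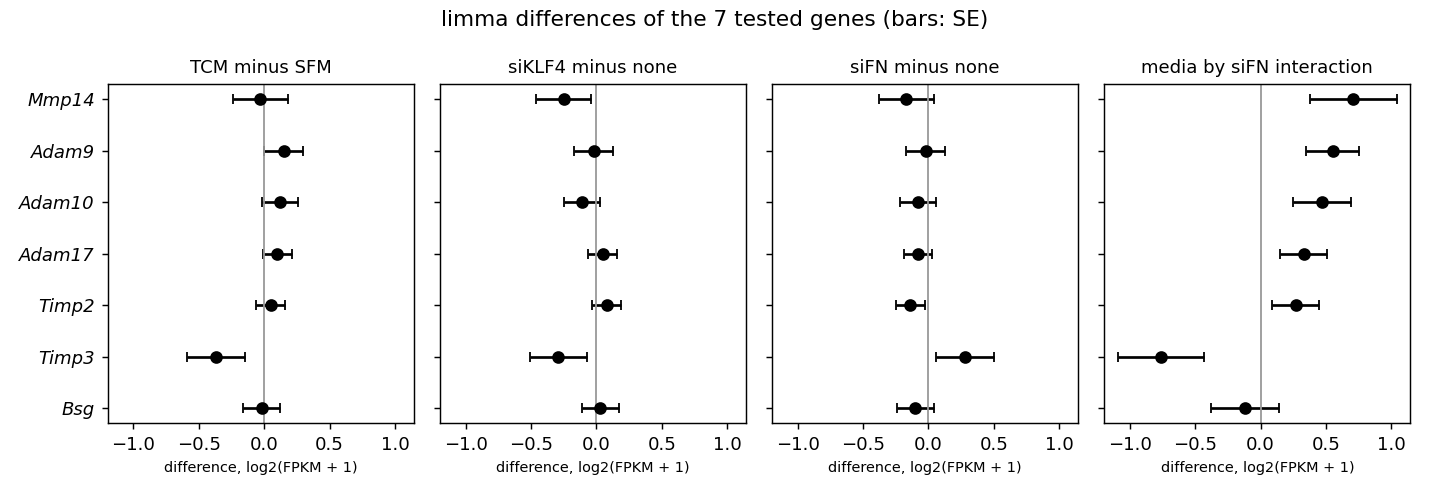
limma differences (x axes, log2(FPKM + 1)) of the 7 tested genes (y axis) for medium, siKLF4, siFN and the media by siFN interaction, with bars for the SE. Values for the 3 main effects lie between -0.37 and 0.28, and those of the interaction between -0.76 (Timp3) and 0.71 (Mmp14), and none passed the test.

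The media by siFN interaction gave the largest values for these genes. It asks whether the TCM minus SFM difference was another one with siFN than without it. Mmp14 had an interaction of 0.71 ± 0.33 (SE, log2, adjusted p = 0.175, limma), Adam9 of 0.55 ± 0.20 (adjusted p = 0.112), Adam10 of 0.47 ± 0.22 (adjusted p = 0.177) and Adam17 of 0.33 ± 0.18. Timp3 lay the other way at -0.76 ± 0.33 (adjusted p = 0.157). Timp2 stood at 0.27 ± 0.18 and Bsg at -0.12 ± 0.26. For this interaction limma called 0 of the 7, against 7.17% of all tested genes. An unadjusted p under 0.05 was found for 1 of the 7, Adam9, and for 2323 of all 6917 tested genes.

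The interaction of the 4 membrane proteases had 1 sign, and its size changed with the library left out. For Mmp14 it was 1.11 without SFM siFN, 0.31 without SFM siKLF4-siFN and 0.48 without TCM siNT, and for Adam9 it ranged from 0.39 to 0.71 over the 8 fits without 1 library. With siFN, TCM minus SFM was 0.42 ± 0.14 for Adam9 (SE, adjusted p = 0.0779, limma), 0.35 ± 0.15 for Adam10 and 0.33 ± 0.23 for Mmp14. The value was -0.75 ± 0.23 for Timp3 (adjusted p = 0.0662, limma). In this comparison limma called 0 of the 7, against 16.9% of all tested genes. An unadjusted p under 0.05 was found for 2 of the 7 and for 2669 of all 6917 tested genes. The siFN difference on SFM matrix was 0.66 ± 0.23 for Timp3 (adjusted p = 0.11, limma), -0.52 ± 0.23 for Mmp14, -0.31 ± 0.15 for Adam10 and -0.29 ± 0.14 for Adam9. Here limma called 0 of the 7, against 6.92% of all tested genes. An unadjusted p under 0.05 was found for 1 of the 7 and for 2319 of all 6917 tested genes. Without siFN the TCM minus SFM differences lay between -0.38 (Mmp14) and 0.04 (Bsg), and on TCM matrix the siFN differences lay between -0.16 (Bsg) and 0.26 (Adam9). In both, 0 of the 7 and 0.0% of all tested genes passed, with 0 of the 7 and 627 and 391 of all tested genes at an unadjusted p under 0.05.

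The 2 siFN libraries on SFM matrix were unlike each other. Matched siFN differences of Mmp14 were -0.20 (SFM siFN minus SFM siNT) and -0.85 (SFM siKLF4-siFN minus SFM siKLF4) on SFM matrix, and 0.26 and 0.12 on TCM matrix. For Adam10 they were -0.05 and -0.58, and 0.11 and 0.21. For Timp3 they were 1.14 and 0.17, and -0.24 and 0.03. For Adam9 they were -0.10 and -0.49, and 0.36 and 0.16, and for Adam17 -0.11 and -0.38, and 0.20 and -0.03. On SFM matrix the proteases thus differed more in the pair that also carries siKLF4, and Timp3 in the pair that does not. Timp3 was the 1 of 7 to differ by at least 1 on the log2 scale between SFM siFN and SFM siNT, where 3.66% of all tested genes did. It was also the 1 of 7 to do so between TCM siFN and SFM siFN, at -1.21, where 5.05% did. In the other 10 matched pairs none of the 7 differed so far. The share of all tested genes was 2.43% (siNT), 1.32% (siKLF4) and 10.2% (both) for TCM minus SFM. With minus without siKLF4 it was 0.723% (SFM) and 1.78% (TCM) where siFN was absent, and 2.99% (SFM) and 0.289% (TCM) where it was present. With minus without siFN it was 1.86% on TCM matrix, and where siKLF4 was present 9.87% (SFM) and 0.781% (TCM). Single pairs have no replicate check and were not tested.

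With SFM siFN left out, the interaction passed for Adam10 (0.73, adjusted p = 0.0191, limma), Mmp14 (1.11, adjusted p = 0.0194) and Adam9 (0.71, adjusted p = 0.0341), that is 3 of 7 against 29.9% of all tested genes. Over all alternatives, the adjusted p ranged from 0.0191 to 0.469 for Adam10, from 0.0194 to 0.465 for Mmp14 and from 0.0341 to 0.329 for Adam9. The same 3 passed for TCM minus SFM with siFN (0.61, 0.72 and 0.58), against 32.4% of all tested genes. Adam10 (-0.57) and Mmp14 (-0.92) passed for siFN on SFM matrix, against 26.5%. SFM siKLF4-siFN is then the only siFN library on SFM matrix, and its spread is taken from the other groups. The interaction of Timp3 was -0.34 without SFM siFN, and it was -1.18 without SFM siKLF4-siFN, where that of Mmp14 was 0.31 and that of Adam10 0.22.

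**Figure D4:**
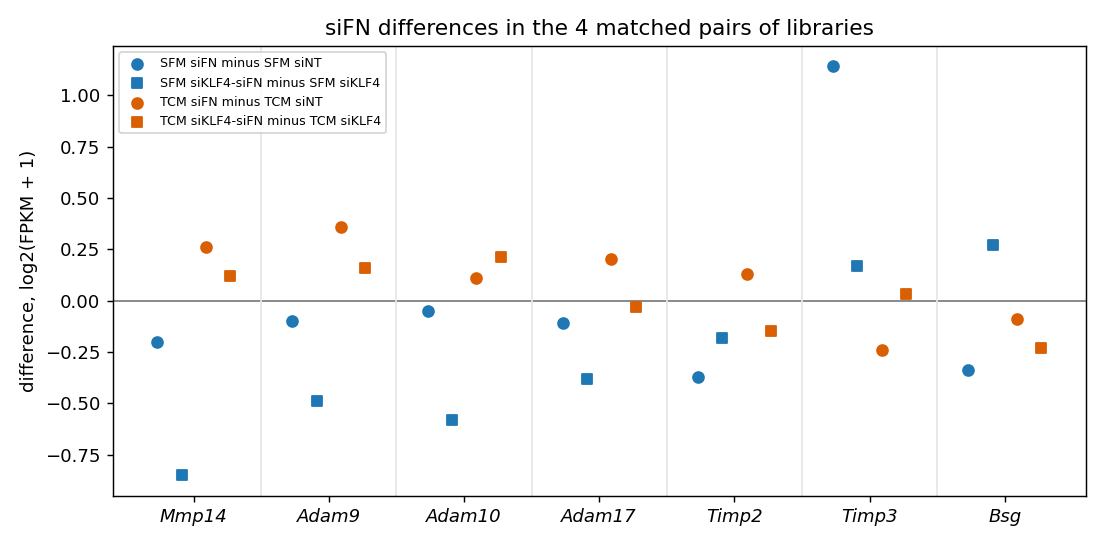
Differences on the log2(FPKM + 1) scale (y axis) with minus without siFN in the 4 matched pairs of libraries, for the 7 tested genes (x axis), in blue for SFM and orange for TCM matrix, as circles without and squares with siKLF4. Timp3 stands at 1.14 in the SFM pair without siKLF4, and Mmp14 at -0.85 in the SFM pair with it.

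The interactions with siKLF4 gave no call either. For media by siKLF4 all 7 values lay above 0, from 0.03 (Timp2) to 0.54 ± 0.42 (SE, Mmp14), with a median of 0.13 against 0.04 over all tested genes. For siKLF4 by siFN 6 of 7 lay below 0, from -0.39 ± 0.44 (Mmp14) to 0.23 ± 0.32 (Bsg). limma called 0 of the 7 in either (adjusted p = 1.0 for each), 0 at an unadjusted p under 0.05, and 0.0% of all tested genes, where 78 and 40 had an unadjusted p under 0.05.

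For each tested gene, the officially named gene with the highest Pearson correlation of log2(FPKM + 1) over the 8 libraries was looked up, as a description of shared pattern. It was Ptcd3 for Mmp14 (r = 0.984), Mapk14 for Timp2 (0.98), Creg1 for Timp3 (0.986), Slu7 for Adam9 (0.986), Setd8 for Adam10 (0.996), G3bp2 for Adam17 (0.989) and Map2k3 for Bsg (0.954). Each is the highest among all tested genes with an official name, over only 8 points, and the single departing library of Timp3 or Adam10 weighs heavily in it. Creg1, a secreted glycoprotein, had an FPKM of 13.5 in SFM siFN and 8.79 to 10.3 in the others. Within the group, strong values were those of Adam9 and Adam17 (0.91), Mmp14 and Adam10 (0.89), and Timp2 and Timp3 (-0.85). Other pairs were weak, such as Mmp14 and Timp2 (0.30), Timp3 and Adam10 (-0.13) and Mmp14 and Timp3 (0.03). These values too rest on 8 points, and the part of the first principal component in them was not tested.

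Around these genes, 6 lists of related genes held 176 genes, of which 175 were in the table and 44 were tested. They cover other metalloproteases, plasminogen and serine proteases, other inhibitors, activators and partners, cathepsins and matrix proteins. For medium, siKLF4 and siFN in the additive limma model, 0 of the 44 passed, with 3, 0 and 0 at an unadjusted p under 0.05. Of all 6917 tested genes 0 passed, with 464, 84 and 84 under that p. For the media by siFN interaction 4 of 44 passed (9.09%, against 7.17% of all tested genes), none higher and 4 lower. For TCM minus SFM with siFN 12 of 44 passed (27.3%, against 16.9%), 5 higher and 7 lower, and for siFN on SFM matrix 5 of 44 (11.4%, against 6.92%), 3 higher and 2 lower. These counts changed with the scale, the filter and the library left out. With a pseudocount of 0.1 they were 0, 6 and 2 (interaction, TCM minus SFM with siFN, siFN on SFM matrix), and with no filter on low values 0, 0 and 0. Of the calls for TCM minus SFM with siFN named in the next paragraphs, those of Anxa2, Ctsa, Ctsd, Ctsl, Hspg2 and Sparc were among the losses with a pseudocount of 0.1. With SFM siFN left out they were 16, 15 and 11. With TCM siFN, SFM siKLF4-siFN or TCM siKLF4-siFN left out all were 0, and with SFM siNT or SFM siKLF4 left out they were 0, 2 and 0. Without TCM siNT they were 0, 7 and 5, and without TCM siKLF4 they were 5, 7 and 5. By gene, TCM minus SFM with siFN passed in 0 of the 8 fits without 1 library for Anxa2, Hspg2 and Sparc. It passed in 1 for Adamts1, Ctsa and Ctsd, in 3 for Cd44, Ctsl, Serpinf1 and Slc16a1, and in 5 for Htra2 and Plaur. The siFN difference on SFM matrix passed in 0 for Anxa2, in 1 for Slc16a1 and in 3 for Cd44, Ctsl and Htra2.

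Of the plasminogen and serine protease list, 6 of 23 were tested, and the interaction passed with a value below 0 for 2. Plaur, the receptor that holds urokinase at the cell surface, had an interaction of -0.96 ± 0.19 (SE, log2, adjusted p = 0.0432, limma). The siFN difference of Plaur was 0.58 ± 0.14 on SFM matrix and -0.38 ± 0.14 on TCM matrix, and neither passed. Its FPKM was 1.56 (siNT), 1.15 (siKLF4), 2.85 (siFN) and 2.20 (both) on SFM matrix, and 1.75 (siNT), 1.22 (siKLF4), 0.824 (siFN) and 0.979 (both) on TCM matrix. The highest Plaur values were those of the 2 siFN libraries on SFM matrix and the lowest those of the 2 on TCM matrix. Htra2, a mitochondrial serine protease and so not one of the matrix, had an interaction of -1.63 ± 0.28 (adjusted p = 0.0401), with 19.3 and 19.7 in the 2 siFN libraries on SFM matrix and 7.35 to 15.3 in the others.

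Of 13 cathepsins, 5 were tested, and Ctsl, Ctsd and Ctsa, lysosomal proteases that can also be secreted, were lower on TCM than on SFM matrix with siFN, by -0.93 ± 0.24, -0.77 ± 0.21 and -0.72 ± 0.19 (SE, log2, adjusted p = 0.046, 0.0491 and 0.0489, limma). The FPKM of Ctsl was 43.9 to 53.6 in 5 libraries, and highest in SFM siKLF4-siFN (108), SFM siFN (88.2) and TCM siNT (85.5), and its interaction was -1.51 ± 0.34 (adjusted p = 0.048). Among 44 other metalloproteases 3 were tested, and Adamts1, a secreted protease of proteoglycans, was higher on TCM than on SFM matrix with siFN by 0.70 ± 0.16 (adjusted p = 0.0397). Adamts1 had its lowest FPKM in SFM siKLF4-siFN (23.2) and SFM siFN (26.8), with 32.9 to 41.6 in the others, above every metalloprotease of the 10 genes.

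Of 30 other inhibitors, 7 were tested. Serpinf1, a serpin that does not block proteases, was lower on TCM than on SFM matrix with siFN (-0.63 ± 0.13, SE, log2, adjusted p = 0.0342, limma), and Sparc, a matricellular protein, was higher (0.54 ± 0.15, adjusted p = 0.0491). Of 32 activators and partners, 17 were tested. Cd44, which anchors matrix proteases at the surface, and Anxa2, a plasminogen receptor subunit, were higher on TCM with siFN (0.57 ± 0.12 and 0.70 ± 0.18) and lower with siFN on SFM matrix (-0.69 ± 0.12 and -0.83 ± 0.18, adjusted p = 0.0353 and 0.0456). Slc16a1, a lactate transporter that basigin escorts, lay the other way, with 0.66 ± 0.14 for siFN on SFM matrix and an interaction of -0.92 ± 0.19 (adjusted p = 0.0446). Of 34 matrix protein genes 6 were tested, and Hspg2, which encodes perlecan, was higher on TCM with siFN (0.54 ± 0.13, adjusted p = 0.0403).

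**Figure D5:**
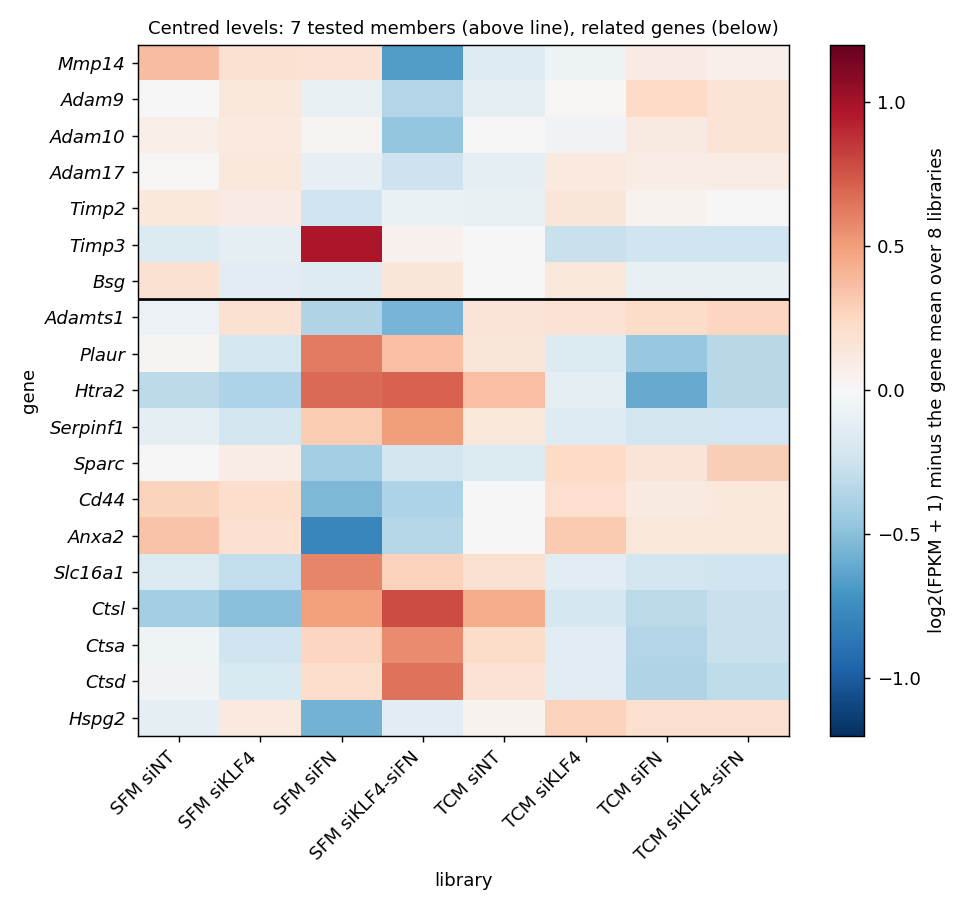
Colours give log2(FPKM + 1) minus the mean of the gene over the 8 libraries (columns), for the 7 tested genes above the line and 12 related genes that passed a test below it (rows). The largest departure is that of Timp3 in SFM siFN (0.97). The related genes depart mainly in SFM siFN and SFM siKLF4-siFN. They were chosen by tests that use these libraries, so their pattern follows from that choice.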

How the data were processed

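Total RNA of 8 libraries was measured by RNA-seq. The authors deposited FPKM values, and each library has its own column. The header of the column read as TCM siFN holds an additional letter S before TCM. It matches no other sample. STAR 2.4.1d, Partek and mm10 are named in the submitters' processing notes. The sources used here do not give the counting rule, annotation, strand setting or any further scaling. Coordinates are 1-based GENCODE M21 (GRCm38, the assembly of mm10), in which 90.4% of row names were found.

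Genes whose mean FPKM reached 1 were tested on log2(FPKM + 1). Two-sided limma tests (3.58.1, R 4.3.3) had a variance trend, with Benjamini-Hochberg adjustment over all 6917 genes at 0.05. Medium, siKLF4 and siFN were tested in an additive model (4 residual degrees of freedom). Each interaction was added alone (3 residual degrees of freedom), and the media by siFN model gave the 4 differences within a medium or siFN level. No condition is replicated: the error comes from libraries sharing a level, and p-values measure only that spread, which may be technical.

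Read depth was inferred from the steps between low FPKM values of genes with 1 transcript over 600 nucleotides. Only 42.2% to 45.2% of such values lay within 0.05 read of a whole number, so depths, reads (at the longest transcript) and counting intervals are approximate and no count test was run.

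Members, gene lists and tests were chosen with earlier results of these data known. All 10 members are named. From each list, up to 4 genes that passed a test were named, or otherwise the 2 with the highest mean, and for each tested member the 1 most correlated officially named gene, where all-capital symbols, clone names and pseudogenes were passed over. Alternatives were a pseudocount of 0.1, no filter, a minimum mean FPKM of 5, median scaling, no variance trend and leaving out each library. A fit with matched pairs as a block was added after seeing the data. The leukocyte marker list as a whole is not reported here.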

Additional observations from a re-analysis of the deposited data

Results flagged for a closer look

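Plaur, Htra2, Ctsl and Slc16a1 among the related genes, and Tyr among the melanocyte markers, had siFN differences that were not the same on the 2 matrices, by the test of the media by siFN interaction itself. The interaction was -0.96 for Plaur, -1.63 for Htra2, -1.51 for Ctsl, -0.92 for Slc16a1 and 1.33 for Tyr (log2, limma, adjusted p of 0.0385 to 0.048). Tyr, which encodes tyrosinase, had its lowest FPKM in SFM siKLF4-siFN (1.32) and SFM siFN (1.48), with 1.67 to 4.07 in the others. Leaving out each library in turn gave values of -1.16 to -0.76 for Plaur, -1.91 to -1.34 for Htra2, -1.88 to -1.13 for Ctsl, -1.03 to -0.80 for Slc16a1 and 1.11 to 1.54 for Tyr. Of these 8 fits, 2 passed for Htra2, Ctsl and Tyr and 1 for Plaur and Slc16a1.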

How the results depend on the processing

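The labels carry no replicate numbers to pair on. A fit chosen after seeing the data, with the 4 matched pairs of libraries as a block, called 0 of the 7 tested genes for medium, siKLF4 and siFN (limma, lowest adjusted p = 0.915, 0.967 and 0.998), 0 at an unadjusted p under 0.05. Over all tested genes it called 0, with 345, 180 and 77 under that p. No member tested passed in any contrast with a pseudocount of 0.1, median scaling or no variance trend (7 tested), no filter (9 tested, with Timp1 and Plat) or a minimum mean FPKM of 5 (2 tested, Mmp14 and Bsg). Leaving out 1 library gave 0 to 3 called members for the media by siFN interaction, 0 to 3 for TCM minus SFM with siFN and 0 to 2 for siFN on SFM matrix, all of them without SFM siFN, and 0 for the other contrasts. Over all tested genes, the interaction called 496, against 0 with a pseudocount of 0.1, 14 with no filter, 251 with a minimum mean of 5 and 0 to 2065 without 1 library. More genes are tested with no filter and fewer with a minimum mean of 5, so those counts are not out of the same total. TCM minus SFM with siFN called 1172, against 14 with no filter, 626 with a minimum mean of 5 and 0 to 2243 without 1 library. The siFN difference on SFM matrix called 479, against 281, 10 and 259 with the same 3 settings and 0 to 1835 without 1 library. With no filter, 8 genes passed for TCM minus SFM without siFN and 13 for siFN on TCM matrix, and without 1 library 0 to 1 for siFN. The cause was not tested. Signs of members without 1 library were followed for medium, siKLF4, siFN and the media by siFN interaction. They were also followed for TCM minus SFM with siFN and for siFN on SFM matrix, and not for the other contrasts. Members whose sign turned when 1 library was left out had these ranges. For medium they were -0.27 to 0.14 (Mmp14), -0.02 to 0.12 (Timp2), -0.04 to 0.21 (Adam10) and -0.12 to 0.06 (Bsg). For siKLF4 they were -0.12 to 0.11 (Adam9), -0.21 to 0.05 (Adam10), -0.04 to 0.14 (Adam17) and -0.05 to 0.13 (Bsg). For siFN they were -0.34 to 0.07 (Mmp14), -0.12 to 0.11 (Adam9), -0.18 to 0.08 (Adam10) and -0.17 to 0.01 (Adam17). The remaining ranges were -0.35 to 0.10 for the interaction of Bsg, -0.26 to 0.10 for Bsg and -0.07 to 0.72 for Mmp14 in TCM minus SFM with siFN, and -0.26 to 0.19 for Bsg in siFN on SFM matrix. Median scaling turned the siFN value of Adam9 to 0.01. Depth limits Timp1 and Plat, with at most 14 and 43 estimated reads.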
